A study of Mus musculus with 12 samples.

Results

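The cells described here were 605 CD4 T cells of cluster 5, of 30749 used cells in the series. They were chosen by measured values, as the cells that the deposited metadata table places in cluster 5 and that held more UMIs (unique molecular identifiers, each counting 1 captured RNA molecule) of Cd4 than of Cd8a and Cd8b1 together. Of the 1426 cells of cluster 5, 750 were CD8 by the same count and 71 had equal counts or none. The study asked how neutralising acyl-CoA-binding protein (ACBP, also called diazepam-binding inhibitor and encoded by Dbi) changes tumour T cells during chemoimmunotherapy. C57Bl/6 mice carried subcutaneous tumours of MCA205, a mouse fibrosarcoma line, grown from 300000 injected cells. In the anti-ACBP group, 3 mice received an antibody that neutralises ACBP/DBI, and in the isotype group 3 mice received a control antibody, each at 2.5 mg/kg on alternate days, starting 2 days before the chemotherapy and ending 1 day ahead of anti-PD1. All 6 mice, isotype mice included, also received 10 mg/kg oxaliplatin 8 days after the tumour cells and 200 µg anti-PD1 a further 8 days later, so no group was free of chemotherapy or immunotherapy. Tumours were taken 2 days after anti-PD1, and their CD4 and CD8 T cells, pooled in equal numbers within a mouse, were sequenced for 5′ gene expression and for T cell receptors. The members numbered 110, 58 and 75 in anti-ACBP mice 1 to 3, against 87, 202 and 73 in isotype mice 1 to 3.

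A helper T cell whose receptor meets peptide on MHC class II switches on immediate early transcription factors within minutes and then transcribes cytokine and chemokine genes in bursts. Il2 encodes the T cell growth factor interleukin-2. Csf2 and Il3 encode growth factors of myeloid cells, Ifng encodes interferon-gamma, Il13 and Il4 encode type 2 cytokines, and Ccl1, Ccl3, Ccl4 and Ccl5 encode chemokines that draw T cells and myeloid cells. Each T cell carries a receptor built from a beta chain and an alpha chain, whose CDR3 loops are made by joining gene segments with random bases, so cells that share a CDR3 nucleotide sequence within a mouse are taken as 1 clone.

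The label was checked first. The summed level of the 4 T cell markers (Cd3d, Cd3e, Cd3g and Trac) was 3697 to 4639 UMIs per 1000000 UMIs (CPM) in the members of the 6 mice, close to the 3509 to 4228 CPM of the other conventional CD4 cells, which were the 6750 CD4-lineage cells outside clusters 2 and 5 with no Foxp3 UMI. The 5 defining markers of mast cells or basophils (Cpa3, Mcpt4, Mcpt8, Fcer1a and Ms4a2), 3 of group 2 innate lymphoid cells (Il17rb, Hs3st1 and Arg1), 4 of B cells and 4 collagen or matrix genes of fibroblasts or tumour cells were at 0 in the members. Longer lists of these types hold genes that T cells can also express, and some had UMIs. Kit, the stem cell factor receptor, was at 6.99 to 41.6 CPM in the members, and Il1rl1, the interleukin-33 receptor, at 1.46 to 21.6 CPM. Of 5 myeloid markers, Lyz2, Csf1r and C1qa were at 0 and the sum of all 5 was 4.38 to 12.8 CPM. Cells with a Lyz2 UMI were 0 of 605, which allows a share of up to 0.496%. Other sums reached higher values in the members. The 4 regulatory T cell markers (Foxp3, Ikzf2, Il2ra and Ctla4) summed to 724 to 1568 CPM there, against 630 to 1069 CPM in the other conventional CD4 cells. The 3 natural killer markers summed to 3.12 to 48.6 CPM against 2.06 to 10.2 CPM, and only Eomes had UMIs in the members. The 4 dendritic cell markers summed to 0 to 7.29 CPM against 1.13 to 2.40 CPM. Cd8a and Cd8b1 together reached 5.25 to 20.6 CPM in the members and 5.0 to 15.7 CPM in the other conventional CD4 cells. No Cd8a or Cd8b1 UMI was found in 559 members (92.4%). At the edge of the rule, 75 members led by 1 Cd4 UMI, 17 cells of cluster 5 led by 1 Cd8 UMI, 10 had equal counts and 61 had neither. A Foxp3 UMI was found in 36 members (5.95%, exact 95% interval 4.2 to 8.14%, which, like each interval here, covers counting error only and neither mice nor shared clones). The receptors, which the rule did not use, fell on the same side of the line. All 495 members with a single beta chain belonged to clones with more CD4 than CD8 cells, whereas 541 of 543 such cluster 5 CD8 cells belonged to clones with more CD8 than CD4 cells. Clones were counted with the cell itself, whose side the rule had set. The 33 members that were the only cell of their clone thus met this by construction. The counts without the cell itself were not computed.

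Depth differed between the mice. The members summed to 1017918, 577144 and 684698 UMIs in the anti-ACBP mice, against 960202, 1143833 and 391204 in the isotype mice. The median was 7580, 9754 and 7625 UMIs per member in the anti-ACBP mice, against 8646, 4988 and 4640 in the isotype mice. Isotype mice 2 and 3 were thus the shallowest, also over all used cells of a library, with medians of 4556 and 4516 UMIs against 6602.5 to 7682 in the other 4 libraries. The 6 libraries held 2923 to 7238 used cells. Of the cell barcodes, 536 occurred in more than 1 library, 30 members carried such a barcode, and no barcode was shared between members of different libraries.

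Before the expression values, the receptor sequences that the results on clones turn on are given, since they show which cells were taken as 1 clone and which mice carried the same encoded receptor through other bases. Each is the CDR3 nucleotide sequence of a chain, 5′ to 3′, as the deposited receptor table gives it, from the conserved cysteine codon to the last codon of the loop. Beta chains are built from the Trb locus on chromosome 6 and alpha chains from the Tra locus on chromosome 14. The first receptor, TRBV2 and TRBJ2-5 paired with TRAV12D-3, was carried by 18 of the 37 members of isotype mouse 2 that had an Il10 UMI. Capitals mark bases that differ from the first sequence of each chain.
TRBV2 clone of isotype 2, 37 cells, 17 of them members: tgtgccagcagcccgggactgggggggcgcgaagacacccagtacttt
TRBV2 second clone of isotype 2, 17 cells, 6 of them members: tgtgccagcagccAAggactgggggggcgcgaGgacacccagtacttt
TRBV2 clone of isotype 3, 7 cells, 0 of them members: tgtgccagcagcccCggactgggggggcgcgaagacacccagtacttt
TRAV12D-3 chain of the first clone: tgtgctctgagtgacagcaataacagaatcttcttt
TRAV12D-3 chain of the other 2 clones: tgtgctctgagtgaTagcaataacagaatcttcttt

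Counted from 1 at the 5′ end of the CDR3, the beta chain of the second clone of isotype 2 differed from the first by C14A, G15A and A33G, which changed 1 of 16 encoded residues. That of isotype 3 differed by G15C, which changed none. The alpha chains differed by C15T, which left the encoded peptide as it was.

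The second receptor, TRBV3 and TRBJ2-5 paired with TRAV6D-6, was the only member receptor seen in all 6 mice. It was carried by 97 cells, 9 of them members. Its 7 beta sequences all encoded the same peptide, and the largest clones of 3 mice are given here against the sequence of isotype 1.
TRBV3 clone of isotype 1, 52 cells, 1 of them a member: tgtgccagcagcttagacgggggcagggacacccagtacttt
TRBV3 clone of anti-ACBP 2, 20 cells, 3 of them members: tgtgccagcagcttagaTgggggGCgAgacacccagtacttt
TRBV3 clone of isotype 3, 11 cells, 4 of them members: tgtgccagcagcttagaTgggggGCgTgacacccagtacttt

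The clone of anti-ACBP 2 differed by C18T, C24G, A25C and G27A, and that of isotype 3 by C18T, C24G, A25C and G27T. Different mice thus carried 1 encoded peptide through different bases. Of 211 member receptors with both chains known, 18 (8.53%) were also found, with the same encoded CDR3 loops and V genes, in CD4-lineage cells of another mouse. These 18 covered 55 of 409 such members, and 11 of the 18 had more than 1 beta nucleotide sequence.

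The members stood out for secreted factors, which is a description and not a test, because these genes can have taken part in the clustering. The settings of the clustering are not given in the sources used here. Among genes of at least 20 CPM in the members, the largest ratios to the other conventional CD4 cells (with 1 CPM added to both) belonged to Ccl4 and Ccl3. The mean over 6 mice was 5878 CPM of Ccl4 in the members and 104 CPM in the other cells, and 3046 CPM of Ccl3 in the members and 87.8 CPM in the other cells. Il3 averaged 205 CPM in the members and 6.54 CPM in the other cells. Ccl1 averaged 4721 CPM in the members and 278 CPM in the other cells. Il2 averaged 1364 CPM in the members and 127 CPM in the other cells. Csf2 averaged 2157 CPM in the members and 243 CPM in the other cells, Ifng 4683 CPM in the members and 560 CPM in the other cells, and Il13 747 CPM in the members and 102 CPM in the other cells. Some genes, named after their values were seen, were lower in the members. Gzmd, a granzyme gene, averaged 70.0 CPM in the members and 430 CPM in the other cells, although Gzmc to Gzmg are near-identical genes between which reads can be split. Granzymes differed among themselves: Gzmb averaged 581 CPM in the members and 381 CPM in the other cells, and Gzmc 284 CPM in the members and 289 CPM in the other cells. Tcf7, a transcription factor of naive and memory T cells, averaged 7.40 CPM in the members and 52.3 CPM in the other cells. S1pr1, a sphingosine-1-phosphate receptor used for exit from tissue, averaged 5.24 CPM in the members and 30.9 CPM in the other cells.

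Shares of cells with a UMI were compared after each cell was thinned to 2000 UMIs, which left out 11 members. An Il2 UMI was found in 11.6% of members, 2.02% of other conventional CD4 cells and 0.553% of cluster 5 CD8 cells. In cluster 0 CD8 cells, taken as a rough level for free RNA, it was 0.163%. Whether these cells transcribe the gene themselves was not tested. Ccl1 was found in 65.3% of members, 25.6% of cluster 5 CD8 cells, 8.6% of other conventional CD4 cells and 1.86% of cluster 0 CD8 cells. Before thinning, the median depth of the cells used was 6593 UMIs in members, 5424.5 in other conventional CD4 cells, 6442 in cluster 5 CD8 cells and 5945 in cluster 0 CD8 cells. Il3 was found in 4.21% of members, 0.0917% of other conventional CD4 cells and no cluster 5 CD8 cell. Ccl4 was more frequent in cluster 5 CD8 cells (87.9%) than in members (52.7%), and Ccl5 likewise (80.4% and 27.6%). Of 8 secreted-factor genes counted per thinned member, 3 cells had none, 97 had 1, 148 had 2, 183 had 3 and 84 had 4, and 51, 19, 8 and 1 cells had 5, 6, 7 and 8.

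**Figure D1:**
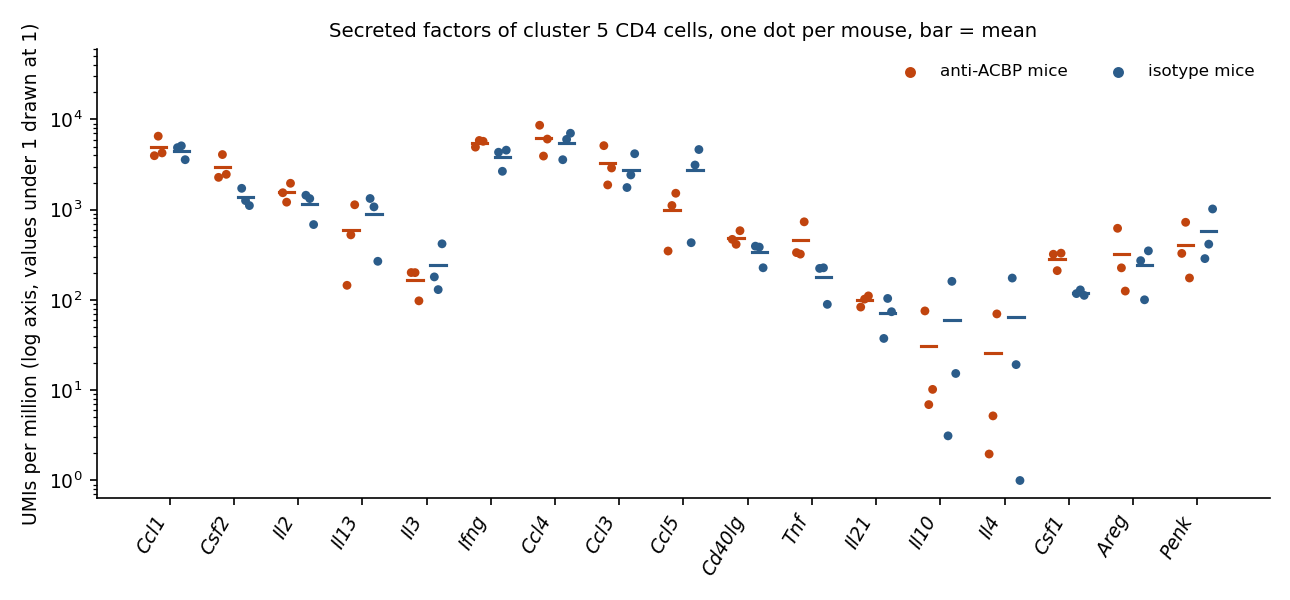
Level of 17 secreted factors or ligands in the members, in CPM on a log axis; dots are mice, bars are group means, and anti-ACBP mice (orange) stand left of isotype mice (blue). Csf2, Ifng, Tnf, Cd40lg and Csf1 did not overlap between the groups, whereas Ccl5, Il13, Il10 and Il4 spread widely between mice of the same group.

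The members were described by 2 expression profiles, divided by Ccl1. This split was chosen after the values were seen and is given without a test. Of 594 thinned members, 388 had a Ccl1 UMI (65.3%). The share was 74.1, 69.0 and 64.8% in the anti-ACBP mice, against 74.7, 60.3 and 52.1% in the isotype mice, which overlapped. Ccl1 and Ccl4 were more often found apart than together. A UMI of Ccl1 but not Ccl4 was found in 265 members, of Ccl4 but not Ccl1 in 190, of both in 123 and of neither in 16. Both genes can have taken part in the clustering that chose the members, which can leave few cells with neither. Whether the pattern comes from that choice was not tested. Ccl4 was found in 31.7% of members with Ccl1 and in 92.2% of members without it, and was the less frequent with Ccl1 in all 6 mice. The median depth as deposited was 7004.5 UMIs with Ccl1 and 5897 without.

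The members with Ccl1 carried the growth factors. Il2 was found in 17.5% of members with Ccl1 and 0.485% of those without, and Csf2 in 37.4% and 7.28%. Il13 was found in 19.9% of members with Ccl1 and 4.37% of those without. Il3 was found in 6.44% of members with Ccl1 and in 0 of 206 without, which allows a share of up to 1.46%. Each of these was the more frequent with Ccl1 in all 6 mice. Of the 69 members with Il2, 68 also had Ccl1 and 62.3% had Csf2, and 20 of the 25 with Il3 also had Il2. The members without Ccl1 more often carried Ccl5, Gzmb and Il10. Ccl5 was found in 13.9% of members with Ccl1 and 53.4% of those without, Gzmb (granzyme B) in 17% and 47.6%, and Il10 (the inhibitory cytokine interleukin-10) in 0.516% and 20.4%. The Il10 share rested on isotype 2: without that mouse it was 0.373% with Ccl1 and 11% without Ccl1. The Il2 share without Ccl1 was a single cell of anti-ACBP 3. No member with Il2 had Il10, 0 of 69, which allows up to 4.35%. Ifng did not follow the split, at 64.4% with Ccl1 and 68.0% without, higher with Ccl1 in 3 mice and lower in 3.

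**Figure D2:**
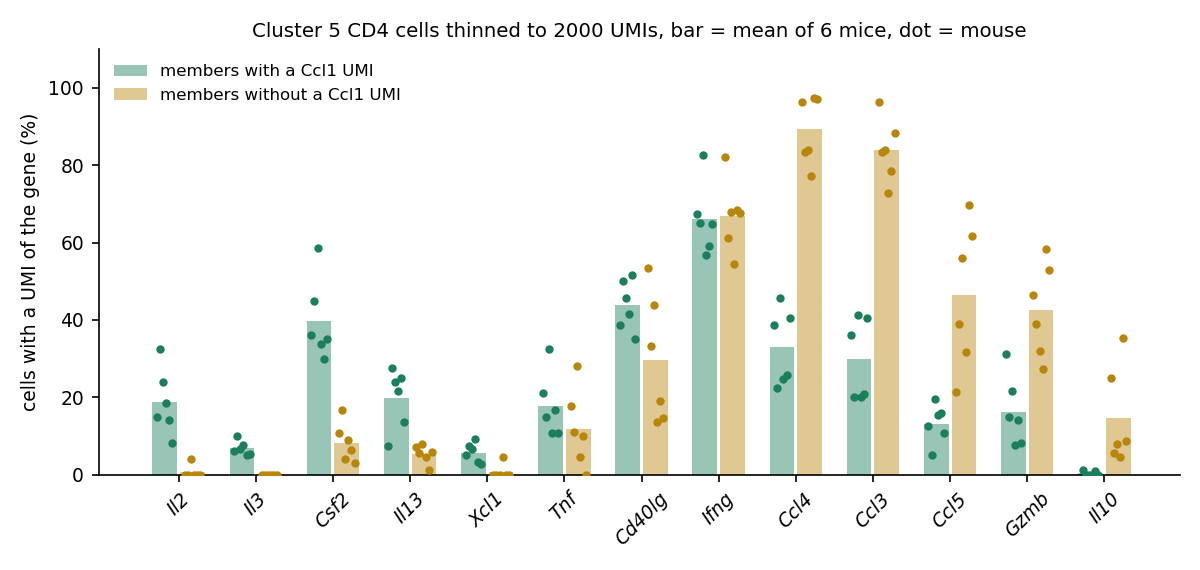
Share of members with a UMI of each gene, in percent, among members with (green) and without (ochre) a Ccl1 UMI, after thinning each cell to 2000 UMIs; bars are means of 6 mice and dots are mice. Il2, Il3 and Csf2 are more frequent beside Ccl1, Ccl4, Ccl3, Ccl5, Gzmb and Il10 are more frequent without it, and Ifng is alike on both sides.

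Among other genes, named after their values were seen, the members with Ccl1 exceeded those without in all 6 mice for Cd83 (95.3 and 16.3 CPM), Cd70 (181 and 40.0 CPM), the ligand of CD27, Tnfsf8 (480 and 103 CPM), the ligand of CD30, Bcl6 (52.6 and 11.5 CPM), a transcriptional repressor that drives the follicular helper fate, and Nr4a1 (970 and 396 CPM), which reports receptor signalling. They were lower in all 6 mice for Prf1 (50.2 and 319 CPM), which encodes perforin, Ctla4 (440 and 1643 CPM), Cd27 (17.4 and 83.4 CPM), Maf (102 and 341 CPM), a factor that drives Il10 in helper cells, and Mt1 (167 and 573 CPM), a metallothionein. Genes of cytotoxic cells did not all go 1 way, since Ctsw, unlike Prf1, was higher with Ccl1 in all 6 mice (254 and 103 CPM). The first value of each pair is the mean with Ccl1. All of these genes were picked from those that went the same way in all 6 mice, so that trait was set by the choice. How many of all genes did so is not given here. The CPM come from counts before thinning, with the cells divided by their Ccl1 UMIs after thinning.

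The profiles were also set out by clone, as a description without a test. Of 28 clones with 4 or more members, 10 had Ccl1 in every member, 4 had it in none and the others were mixed, and most of the 10 had only 4 or 5 members. The 23 members of isotype 2 that carried the TRBV2 receptors printed above were of the second profile. Their Il10 was found in 18 cells (78.3%, exact 95% interval 56.3 to 92.5%), Ccl5 and Ccl4 in all 23, and Gzmb in 17. Ccl1 was found in 0 of 23, which allows a share of up to 13%, and Csf2, Il2, Il13 and Il3 were also in none. Summed over these members Il10 stood at 874 CPM, whereas over all members of isotype 2 it was 161 CPM. The 31 other cells of isotype 2 with these receptors lay mostly in cluster 0 (17 cells), and Ccl5 was found in 27 of them and Il10 in 15. The 7 cells of isotype 3 with the same encoded receptor had none in cluster 5, none with Il10, 2 with Ccl5 and 4 with Ccl1. The receptor seen in all 6 mice showed both profiles. Of its members, the 3 of anti-ACBP 2 all had Ccl1 and none had Ccl4, and the 4 of isotype 3 all had Ccl4 and none had Ccl1.

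Other large clones differed among themselves. The largest of anti-ACBP 2, TRBV15, held 20 of its 50 typed members (40.0%, exact 95% interval 26.4 to 54.8%), and Ccl1 was found in 75.0% of them, Csf2 in 45% and Il2 in 25.0%. A TRBV19 clone of isotype 1 held 15 members, with Ccl1 in 33.3% and Ccl4 in 86.7%. A TRBV19 clone of isotype 3 held 9 members, with Ccl5 at 14510 CPM and no Ccl1 or Csf2. A smaller TRBV5 clone of anti-ACBP 1 held 4 members, with Il10 in 75.0% and Ccl1 in 25.0%. Over the 13 clones with 6 or more members, Ifng was higher in the members than in the other conventional CD4 cells of the same clone in all 13. The medians were 3338 and 433 CPM. Csf2 was higher in 9 and lower in 2, and Gzmb was higher in 5 and lower in 8. Such genes can have taken part in the clustering that chose the members, so these counts of clones are a description and not a test. These 13 clones held 126 of the 495 typed members.

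**Figure D3:**
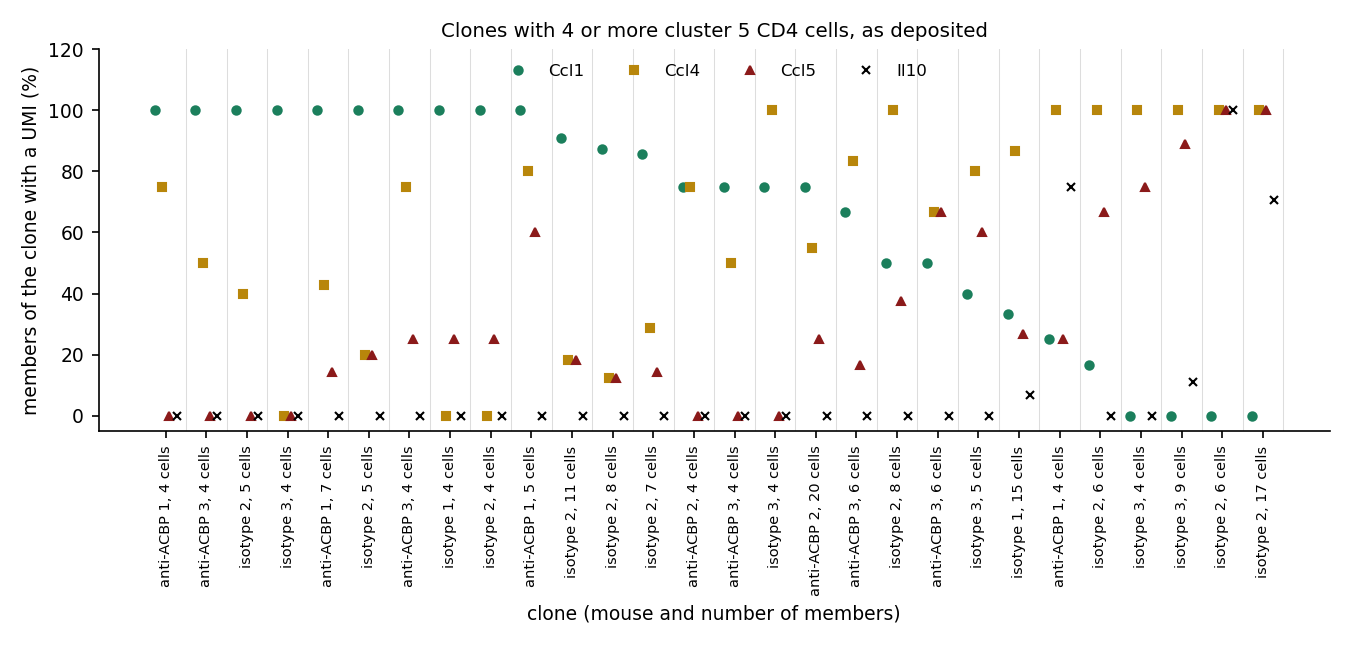
Share of the members of each clone with a UMI of Ccl1, Ccl4, Ccl5 or Il10, in percent, for the 28 clones with 4 or more members, each labelled with its mouse and number of members and ordered by Ccl1. The left end holds clones with Ccl1 in every member, and the right end holds clones with Ccl4 in every member and Ccl1 in none, with Il10 in both TRBV2 clones of isotype 2.

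The receptors, which the rule did not use, allow a test over mice. A member was in a clone of 2 or more cells in 92.8 ± 4.82% of cases, against 86.4 ± 5.58% for the other conventional CD4 cells (mean ± SD of 6 mice). The members were higher in 6 of 6 mice (exact two-sided sign-flip permutation test, p = 0.031, the smallest that 6 mice can give; 0.0521 adjusted over 5 receptor measures). The clone also held regulatory T cells for 47.1 ± 8.38% of members and 37.0 ± 6.46% of other conventional CD4 cells, higher in 6 of 6 mice, with the same exact p of 0.031 and adjusted p of 0.0521. In 50 typed cells, 30.4 ± 4.76 clones were expected among members and 36.5 ± 1.99 among the other cells, lower in 6 of 6 mice at the same p. The median clone size was 17.5 cells for members and 12 for the other cells (exact p = 0.0625, higher in 5 mice), and the share whose clone also held CD8 cells was 19.9% and 15.6% (exact p = 0.469). None of the 5 measures stayed under 0.05 after adjustment, and 5 mice, as when 1 is left out, can give no p below 0.0625. Regulatory T cells were here the CD4-lineage cells outside the members that lay in cluster 2 or had a Foxp3 UMI. The 36 members with a Foxp3 UMI were kept, whereas the other conventional CD4 cells had none by definition. The overlap with regulatory T cells was not computed without these members or at equal clone size.

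**Figure D4:**
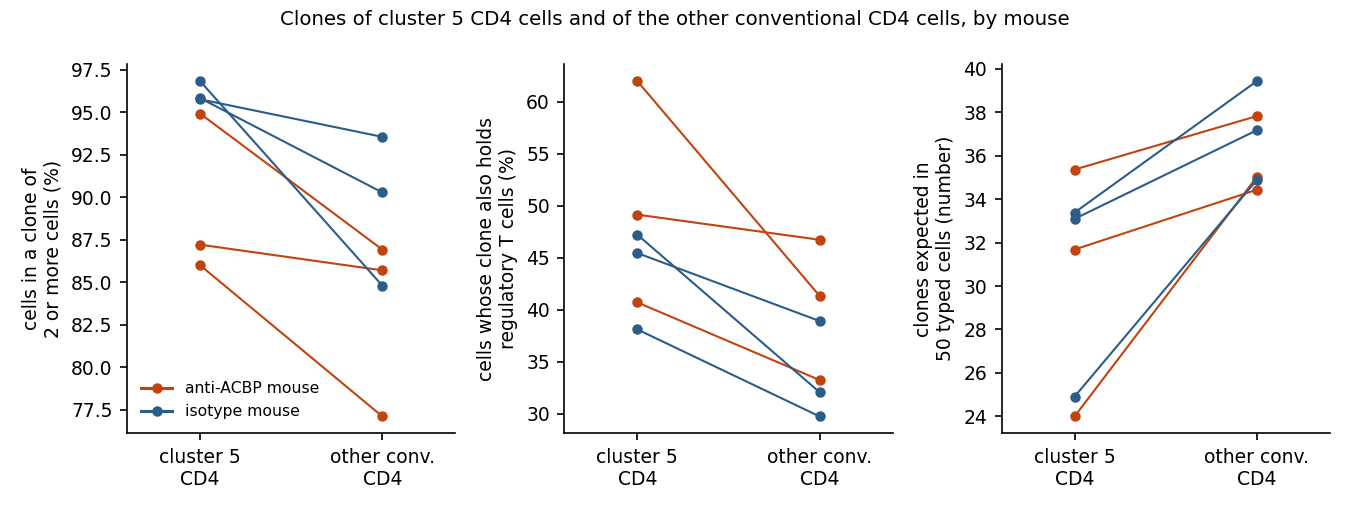
Share of typed cells in a clone of 2 or more cells (left), share whose clone also holds regulatory T cells (middle) and clones expected in 50 typed cells (right), for members and for other conventional CD4 cells; each line joins the values of 1 mouse, anti-ACBP in orange and isotype in blue. All 6 lines fall in the left and middle panels and rise in the right one.

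The sister cells show where the clones of the members were otherwise found. The 495 typed members made 255 clones, of which 166 had 1 member, and 33 members were the only cell of their clone. Of the remaining cells of these clones, 62.3% lay in cluster 1, 9.23% in cluster 2 and 8.33% in cluster 7. Of 71 CD4 clones with 20 or more cells, 13 had no member, the median was 6.25% and the highest share of a clone in the members was 54.8%.

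With anti-ACBP, single genes of receptor signalling such as Fosb, Egr1 and Dusp6 and the cytokine genes Csf1 and Clcf1 were higher in the members, and Ddit4, Slc2a1 and Sh2d1a were lower. None of the cytokines or chemokines that mark the cells passed the test in the counts as deposited. Summed per mouse, 6794 genes were tested with edgeR's quasi-likelihood test and 19 passed a Benjamini-Hochberg adjusted p of 0.05 (0.28%), 16 of them higher with anti-ACBP (0.236%) and 3 lower (0.0442%). At an unadjusted p under 0.05 there were 576. The p-values measure the spread between 3 mice a group, and in counts summed per mouse a larger share of cells with a gene and more RNA per cell cannot be told apart. All 19 were in separate ranges in the 2 groups, which was true of 14.1% of all genes tested (7.46% higher and 6.59% lower with anti-ACBP).

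Among immediate early genes, Fosb and Egr1 had the smallest p-values of all genes tested. Fosb, which pairs with Jun proteins to form AP-1, was at 134, 158 and 143 CPM in anti-ACBP mice, against 47.9, 23.6 and 33.2 CPM in isotype mice, which is 2.05 ± 0.23 on the log2 scale (fold change ± SE; edgeR adjusted p = 0.000641). Egr1, a zinc finger factor induced by receptor signals, was at 233, 180.2 and 282 CPM in anti-ACBP mice, against 68.7, 42.8 and 33.2 CPM in isotype mice, a log2 fold change of 2.20 ± 0.24 (edgeR adjusted p = 0.000917). In both genes every anti-ACBP mouse lay above every isotype mouse. Atf3, a stress-induced bZIP factor, rose by 1.39 ± 0.25 on the log2 scale (edgeR adjusted p = 0.0212). Ier5 rose by 0.99 ± 0.18 (edgeR adjusted p = 0.0212), and Klf4, a factor that restrains proliferation, by 3.21 ± 0.57 (edgeR adjusted p = 0.0246). Klf4 rested on few molecules, 52, 10 and 21 UMIs in anti-ACBP mice against 6, 1 and 2 in isotype mice. Fos itself was at 174, 52.0 and 203 CPM in anti-ACBP mice, against 28.1, 37.6 and 17.9 CPM in isotype mice, and did not pass in edgeR (log2 fold change 2.28 ± 0.59, edgeR adjusted p = 0.375), although DESeq2 called it. Of the 28 genes listed as receptor signal transcription factors, 26 were tested, 3 rose (Fosb, Egr1 and Atf3) and none fell, with a median log2 fold change of 0.27 against -0.01 over all genes tested. Over all genes tested 0.236% rose. In the other conventional CD4 cells the median of the list was 0.19. Atf3, Fos and Ier2 also belong to a list of genes of tissue dissociation and heat stress, of which 14 were tested, Atf3 passed and the median was -0.01. Fosb and Egr1 were not placed on that list, so its median does not bear on them. The part of handling in these values was not tested. The call for Atf3 ended without anti-ACBP 1 (adjusted p = 0.0656) or isotype 2 (0.173), for Ier5 without anti-ACBP 2 (0.126), isotype 2 (0.155) or isotype 3 (0.126), and for Klf4 without anti-ACBP 1 (0.074), anti-ACBP 3 (0.0566), isotype 2 (0.143) or isotype 3 (0.126).

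Among secreted factors, Csf1 rose. It encodes macrophage colony-stimulating factor and was at 321, 211 and 330.1 CPM in anti-ACBP mice, against 118, 129 and 113 CPM in isotype mice, a log2 fold change of 1.26 ± 0.17 (edgeR adjusted p = 0.00269). An isotype mouse never reached the lowest anti-ACBP mouse. Clcf1, a cytokine of the interleukin-6 family, was at 146, 118 and 143 CPM in anti-ACBP mice, against 80.2, 47.2 and 58.8 CPM in isotype mice (log2 fold change 1.14 ± 0.21, edgeR adjusted p = 0.0212). Csf1 was the only gene called among the 17 tested of 27 secreted cytokines, whose median log2 fold change was 0.29, and 6 of the 17 were higher without overlap. Over all genes tested the median was -0.0055, 0.236% were called higher and 7.46% were higher without overlap. In the other conventional CD4 cells the median of the secreted cytokines was 0.38. The call for Clcf1 ended without anti-ACBP 2 (adjusted p = 0.0555), anti-ACBP 3 (0.0526), isotype 2 (0.173) or isotype 3 (0.104).

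The cytokines that mark the cells did not pass in the counts as deposited. Csf2 came nearest, at 2284, 4087 and 2468 CPM in anti-ACBP mice, against 1727, 1262 and 1112 CPM in isotype mice, with no overlap (log2 fold change 1.10 ± 0.27, edgeR adjusted p = 0.255). DESeq2 called it (adjusted p = 0.000489), as did 3 of the other 20 alternatives, with adjusted p-values from 2.73e-09 to 0.586 over all 21. The share of members with a Csf2 UMI was 43.6, 48.3 and 45.3% in anti-ACBP mice, against 35.6, 27.2 and 26.0% in isotype mice. The difference of 16.1 percentage points had an exact two-sided permutation p of 0.1, the smallest that 3 against 3 mice can give. After thinning the shares were 29.6, 36.2 and 39.4% in anti-ACBP mice, against 27.6, 20.6 and 19.7% in isotype mice, still without overlap. Il2 was at 1543, 1213 and 1964 CPM in anti-ACBP mice, against 1447, 1329 and 685 CPM in isotype mice, which overlapped (log2 fold change 0.44 ± 0.33, edgeR adjusted p = 0.805). After each cell was thinned to 2000 UMIs, the fold change of Il2 was 1.09 and it was called (edgeR adjusted p = 0.0209), the only 1 of 21 alternatives in which it was, with adjusted p-values from 0.0209 to 0.999. Ccl1 was at 3969, 6532 and 4262 CPM in anti-ACBP mice, against 4876, 5103 and 3584 CPM in isotype mice (log2 fold change 0.12 ± 0.20, edgeR adjusted p = 0.928). Il13 was at 145, 527 and 1135 CPM in anti-ACBP mice, against 1332, 1076 and 268 CPM in isotype mice, and Il3 at 201, 201 and 97.9 CPM in anti-ACBP mice, against 180.2, 130.3 and 419 CPM in isotype mice. In both the mice of a group differed by more than the groups did.

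Ifng was at 4939, 5853 and 5732 CPM in anti-ACBP mice, against 4336, 2666 and 4571 CPM in isotype mice (log2 fold change 0.52 ± 0.18, edgeR adjusted p = 0.39). Tnf, encoding tumour necrosis factor, was at 335, 322 and 735 CPM in anti-ACBP mice, against 224, 227 and 89.5 CPM in isotype mice (log2 fold change 1.30 ± 0.52, edgeR adjusted p = 0.617). Neither pair of groups overlapped and neither passed. The chemokines overlapped, with 0 of 5 tested genes of a list of 13 called by edgeR, none at an unadjusted p under 0.05 and none by DESeq2. Of TNF family ligands, 8 of 10 were tested and none passed in edgeR, 3 having an unadjusted p under 0.05. Tnfsf11, which encodes RANKL, the driver of osteoclast formation, was at 1373, 1197 and 1005 CPM in anti-ACBP mice, against 882, 545 and 578 CPM in isotype mice (log2 fold change 0.84 ± 0.20, edgeR adjusted p = 0.128), and was called by DESeq2 (adjusted p = 0.0127). Il10 was at 75.6, 6.93 and 10.2 CPM in anti-ACBP mice, against 3.12, 161 and 15.3 CPM in isotype mice, and its log2 fold change of -0.91 ± 1.56 (edgeR adjusted p = 0.933) became 2.33 without isotype 2, the mouse of the TRBV2 clones.

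Single genes of signal inhibitors and surface molecules also passed. Cd69, an early activation marker that holds T cells in tissue, was at 199, 246 and 248 CPM in anti-ACBP mice, against 102, 141 and 115 CPM in isotype mice (log2 fold change 0.94 ± 0.16, edgeR adjusted p = 0.0183). Dusp6, a phosphatase that switches off ERK, was at 30.4, 32.9 and 27.8 CPM in anti-ACBP mice, against 9.37, 2.62 and 7.67 CPM in isotype mice (log2 fold change 2.29 ± 0.41, edgeR adjusted p = 0.0212). Pim1, a kinase gene induced by cytokine signals, rose by 0.62 ± 0.13 (edgeR adjusted p = 0.0466). Zc3h12a, which encodes an RNase that degrades cytokine transcripts, rose by 1.01 ± 0.18, and Slamf7, a receptor of the SLAM family, by 0.90 ± 0.17 (edgeR adjusted p = 0.0212 and 0.0241). Sh2d1a, the adaptor that SLAM receptors signal through, fell. It was at 42.2, 52.0 and 45.3 CPM in anti-ACBP mice, against 84.4, 148 and 105 CPM in isotype mice (log2 fold change -1.29 ± 0.22, edgeR adjusted p = 0.0183). Of 21 tested signal inhibitors 2 rose, Dusp6 and Pim1, and none fell, where 0.236% of all genes tested rose. Their median log2 fold change was 0.10, beside 0.12 in the other conventional CD4 cells. Of 10 tested activation surface markers Cd69 alone passed. Each of these calls ended without anti-ACBP 2 and, except that of Cd69, also without isotype 2, and those of all but Sh2d1a ended without isotype 3. The adjusted p without anti-ACBP 2 was 0.0884 for Cd69, 0.0884 for Dusp6, 0.249 for Pim1, 0.126 for Zc3h12a, 0.109 for Slamf7 and 0.0645 for Sh2d1a. Without isotype 2 it was 0.15 for Dusp6, 0.196 for Pim1, 0.143 for Zc3h12a, 0.140 for Slamf7 and 0.151 for Sh2d1a. Without isotype 3 it was 0.0641 for Cd69, 0.0531 for Dusp6, 0.215 for Pim1, 0.104 for Zc3h12a and 0.104 for Slamf7. Slamf7 and Pim1 were further lost without anti-ACBP 3 (0.085 and 0.0922) and Pim1 without anti-ACBP 1 (0.0765).

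Ddit4 and Slc2a1 were lower. Ddit4 encodes a stress-induced inhibitor of mTORC1 and was at 231, 253 and 285 CPM in anti-ACBP mice, against 445, 586 and 637 CPM in isotype mice (log2 fold change -1.11 ± 0.15, edgeR adjusted p = 0.00231). Slc2a1, the glucose transporter GLUT1, was at 80.6, 78.0 and 129 CPM in anti-ACBP mice, against 174, 178 and 220 CPM in isotype mice (log2 fold change -0.97 ± 0.19, edgeR adjusted p = 0.0293). Both belong to the 28 listed genes of glycolysis and hypoxia, of which 26 were tested, 2 fell, none rose and 6 had a positive log2 fold change, with a median of -0.26. Over all genes tested 0.0442% fell, 3339 of 6794 had a positive log2 fold change and the median was -0.0055. In the other conventional CD4 cells 27 genes of the list were tested, 1 fell and the median was -0.20. The call for Slc2a1 ended without anti-ACBP 1 (adjusted p = 0.077), anti-ACBP 2 (0.235), isotype 2 (0.130) or isotype 3 (0.146).

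The remaining calls were Gzmc, Emp1, Srxn1 and H2-Q4. Gzmc, encoding granzyme C, had the largest fold, at 650.3, 601 and 285 CPM in anti-ACBP mice, against 59.4, 50.7 and 56.2 CPM in isotype mice (log2 fold change 3.22 ± 0.36, edgeR adjusted p = 0.0246). A single cell held 91.6% of the Gzmc UMIs of anti-ACBP 2, the share of members with a Gzmc UMI overlapped between the groups (26.4, 8.62 and 26.7% in anti-ACBP mice, against 18.4, 7.43 and 6.85% in isotype mice), and reads can be shared with the neighbouring granzyme genes. Emp1, a membrane protein gene, rose by 1.59 ± 0.27 and Srxn1, encoding the antioxidant enzyme sulfiredoxin, by 1.28 ± 0.22 (edgeR adjusted p = 0.0183 in both). H2-Q4, an MHC class I gene whose reads can be shared with its family, rose by 0.73 ± 0.13 (edgeR adjusted p = 0.0212). Zc3h12a, Ier5, H2-Q4 and Slamf7 lay outside the rule for named genes and are named after their values were seen, to complete the 19. The call for Gzmc ended without any 1 isotype mouse or without anti-ACBP 2 (adjusted p from 0.0706 to 0.222), for Emp1 without isotype 2 (0.0832), for Srxn1 without anti-ACBP 2 (0.0884) or isotype 2 (0.143), and for H2-Q4 without anti-ACBP 2 (0.151), anti-ACBP 3 (0.0739), isotype 2 (0.143) or isotype 3 (0.126).

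**Figure D5:**
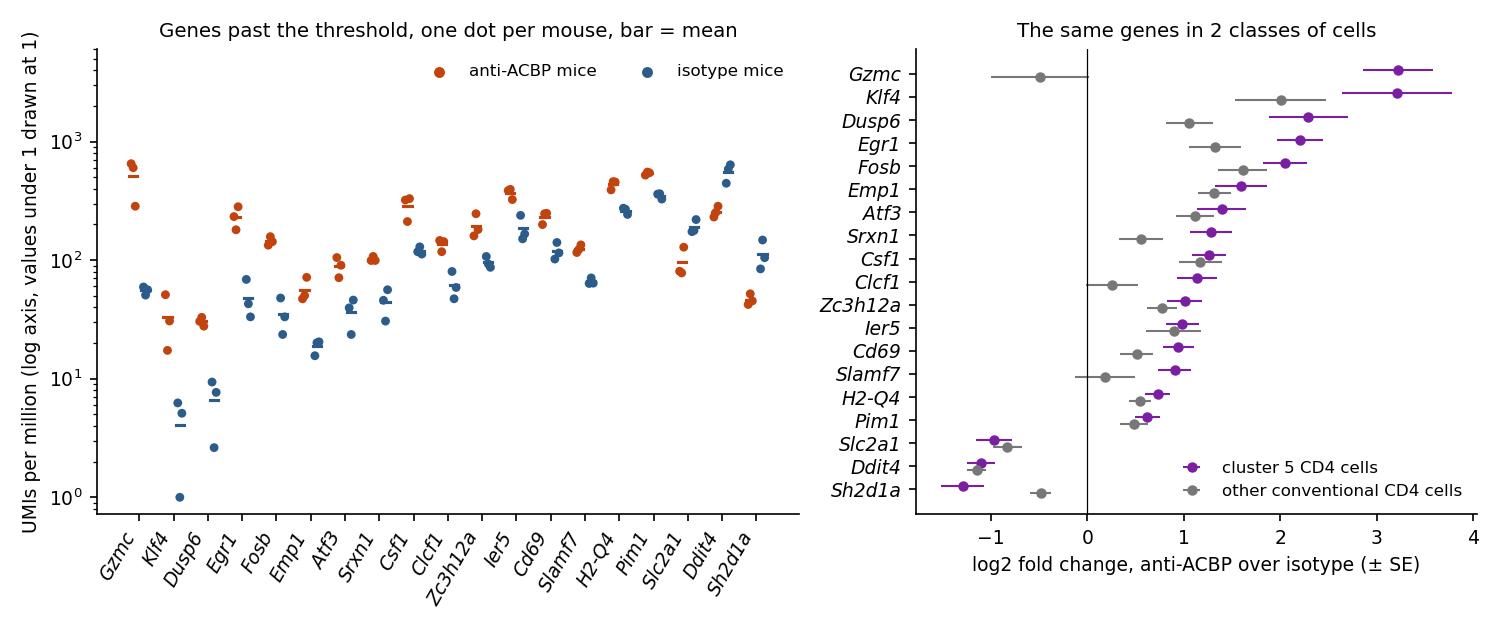
Left, level of the 19 called genes in the members in CPM on a log axis, with dots for mice, bars for means, and anti-ACBP (orange) left of isotype (blue). Right, log2 fold change of anti-ACBP over isotype with its SE in the members (purple) and in the other conventional CD4 cells (grey): all but Gzmc point the same way in both.

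Fosb, Ddit4, Csf1 and Egr1 passed with each mouse left out in turn, with a highest adjusted p of 0.0303. Of the 19, 15 were kept without anti-ACBP 1, 7 without anti-ACBP 2, 14 without anti-ACBP 3, 18 without isotype 1, 5 without isotype 2 and 8 without isotype 3. The total called ranged between 7 without isotype 2 and 82 without isotype 1. When the cells of the largest member clone of each mouse were removed, 7 genes were called, all among the 19. When only members with a Ccl1 UMI were used, 26 were called, 14 of them among the 19, and Egr1 was not (log2 fold change 2.09, adjusted p = 0.407). After thinning each cell to 2000 UMIs, 15 of the 19 could be tested and 7 were called, Fosb, Egr1, Ddit4, Csf1, Cd69, Ier5 and Gzmc.

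Some further lists held no call in edgeR. All 15 NF-kappaB genes, which encode the subunits and inhibitors of a factor that drives cytokine transcription, had positive log2 fold changes, with a median of 0.48, and 8 did not overlap, where 7.46% of all genes tested were higher without overlap. None of the 15 passed in edgeR, 12 had an unadjusted p under 0.05, and DESeq2 called 3 (Nfkbia, Nfkbid and Traf1). Of all 6794 genes tested, 3339 had a positive log2 fold change and 576 an unadjusted p under 0.05. In the other conventional CD4 cells the median of the 15 NF-kappaB genes was 0.33. Traf1, an adaptor of TNF receptors, was at 658, 776 and 562 CPM in anti-ACBP mice, against 486, 352 and 360.4 CPM in isotype mice (edgeR adjusted p = 0.0773). Nfkbia, encoding the inhibitor I-kappa-B-alpha, was at 1276, 1582 and 1430 CPM in anti-ACBP mice, against 1103, 892 and 864 CPM in isotype mice (edgeR adjusted p = 0.0862). Of 14 tested genes of the p53 and apoptosis list, none passed in edgeR or DESeq2 and 7 had an unadjusted p under 0.05. The median was 0.41, beside 0.41 in the other conventional CD4 cells. Of 19 tested cell cycle genes, none passed in edgeR, 2 had an unadjusted p under 0.05, DESeq2 called 1 (Tubb5), 2 had a positive log2 fold change and the median was -0.60, beside -0.58 in the other conventional CD4 cells. Mki67, a proliferation marker, was at 88.4, 10.4 and 13.1 CPM in anti-ACBP mice, against 72.9, 65.6 and 58.8 CPM in isotype mice (edgeR adjusted p = 0.902), and without anti-ACBP 1 its log2 fold change was -2.49 with an adjusted p of 0.00116. Of 9 tested checkpoint receptors none passed in edgeR or DESeq2 and none had an unadjusted p under 0.05, and Pdcd1, encoding PD-1, was at 623, 702 and 641 CPM in anti-ACBP mice, against 549.9, 572 and 621 CPM in isotype mice. Dbi itself was at 160.1, 137 and 161 CPM in anti-ACBP mice, against 208, 188 and 179 CPM in isotype mice (log2 fold change -0.33 ± 0.15, edgeR adjusted p = 0.549), which does not check the labels, since the antibody is directed at the protein.

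The size of the population did not separate the groups. The members were 6.08, 6.24 and 5.59% of CD4-lineage cells in anti-ACBP mice, against 3.03, 8.03 and 5.70% in isotype mice (difference 0.385 percentage points, exact permutation p = 0.8). By the deposited phase column, 18.2, 3.45 and 6.67% of members were in S or G2M in anti-ACBP mice, against 17.2, 17.8 and 20.6% in isotype mice (difference -9.11 points, exact permutation p = 0.3). Anti-ACBP 1 lay among the isotype mice. The share of typed members in a clone of 2 or more cells was 87.2, 86.0 and 94.9% in anti-ACBP mice, against 95.8, 95.8 and 96.8% in isotype mice, lower by 6.76 points without overlap (exact permutation p = 0.1, the smallest possible). With clones counted among CD4-lineage cells only, the shares were 87.2, 86.0 and 94.9% in anti-ACBP mice, against 93.06, 95.15 and 95.24% in isotype mice. These already overlapped. After the libraries were also thinned to the same number of typed CD4-lineage cells, the groups again overlapped. The shares were then 83.7, 86.0 and 89.6% in anti-ACBP mice, against 84.3, 89.9 and 93.8% in isotype mice.

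The same genes were compared in the other conventional CD4 cells. In the other conventional CD4 cells 7 of 10618 genes passed (0.0659%), among them Ddit4 (log2 fold change -1.15) and Emp1 (1.32). Fosb had a log2 fold change of 1.61 there (edgeR adjusted p = 0.0871) and Csf1 of 1.17 (0.112). The difference in change between the members and the other conventional CD4 cells, with the mouse as a block, passed for 1 of 9252 genes (0.0108%), Plk2, and 428 had an unadjusted p under 0.05. Plk2, a kinase gene of the stress response, was at 104, 184 and 209 CPM in the members of anti-ACBP mice, against 64.6, 90.1 and 61.4 CPM in those of isotype mice. Its log2 fold change was 1.14 ± 0.24 in the members (edgeR adjusted p = 0.0773) and 0.20 ± 0.28 in the other conventional CD4 cells (0.828), a difference of 0.96 ± 0.17 (edgeR adjusted p = 0.0279). The call ended without anti-ACBP 3 (adjusted p = 0.165), isotype 2 (0.055) or isotype 3 (0.177). Egr1 came next, with a difference of 0.90 ± 0.18 (edgeR adjusted p = 0.0616). Against the cluster 5 CD8 cells, no gene of 7797 passed in edgeR and 394 had an unadjusted p under 0.05. No other tool was run on these differences.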

How the data were processed

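Per the labels' protocols, tumour T cells of 6 mice gave 5′ expression and receptor libraries, with 10000 cells loaded each. The deposited matrices hold UMI counts, whole numbers per gene and barcode. Cell Ranger 7.0.0, Seurat and mm10 are named, with no role, by the submitters' processing notes. The clusters, phases and a column DF1 of unstated meaning came from the deposited metadata table. Removal of background RNA or doublets by the submitters: not given in the sources used here, and no doublet caller was run. Cells with 2 or more TRB chains were left out in an alternative. The deposited receptor table lists contigs, and cells with 1 TRB chain were typed. The members, lists and alternatives were chosen with earlier results of these data known.

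Counts were summed per mouse and tested with edgeR 4.0.16 (robust quasi-likelihood, TMM, filterByExpr, receptor segments left out, threshold 0.05) in R 4.3.3, positive meaning higher with anti-ACBP. The script was tested on simulated data. Alternatives used DESeq2 1.42.0 and limma 3.58.1. CPM is per 1000000 UMIs of the cells summed. Named genes were the markers, Dbi, Pdcd1, Gzmb, Ifng, Foxp3 and Mki67, cytokines, chemokines and TNF ligands of at least 10 CPM, up to 10 called genes in each direction, up to 4 genes of each list by p, and the 15 with the largest ratio to the other conventional CD4 cells.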

Additional observations from a re-analysis of the deposited data

Results flagged for a closer look

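Plk2 was the only gene whose change with anti-ACBP differed between the members and the other conventional CD4 cells by a test of the difference itself. The difference in log2 fold change was 0.96 ± 0.17 (SE, edgeR adjusted p = 0.0279 over 9252 genes). Plk2 averaged 166 CPM in the members of anti-ACBP mice and 72.0 CPM in those of isotype mice, and was higher in 3 of 3 anti-ACBP mice than in any isotype mouse. The difference was 0.86 with an adjusted p of 0.0525 when only cells with Cd4 and no Cd8a or Cd8b1 UMI were used. Against the cluster 5 CD8 cells it was 1.15, with an adjusted p of 0.281. Groups of 3 mice were not tested for a mouse that stands apart.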

How the results depend on the processing

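All 19 calls kept their sign in every alternative in which they were tested. The 19 genes called became 35 with DESeq2, 128 with no filter on low counts, 53 with the replicate number as a block, 7 without the largest clone of each mouse, and 7 to 82 with 1 mouse left out. Whether equal numbers pair the mice was not given by the labels. Same-numbered mice correlated at 0.154, 0.023 and -0.034, and pairs of unlike number at -0.172 to 0.148, which cannot settle it. The block kept all 19 and its calls were 40 higher and 13 lower, against 91 and 37 with no filter and 16 and 3 as reported. Differences in change from the other conventional CD4 cells numbered 0 with cluster 5 CD8 cells in their place, 0 with the stricter lineage rule, and 1 to 17 with 1 mouse left out. Uncalled genes changed sign as follows. Ccl1 was -0.13 to 0.24 with 1 mouse left out, -0.079 without cells with DF1 FALSE, -0.17 without the largest clones and -0.082 in cells with Ccl1. With 1 mouse left out, Ccl3 ranged over -0.23 to 0.67, Ccl4 over -0.16 to 0.43, Foxp3 over -0.29 to 0.70, Il10 over -2.94 to 2.33, Il3 over -0.78 to 0.11 and Gzmb over -0.26 to 0.85, and Gzmb was -0.23 in cells with 1 TRB chain. The share of members was -0.0593 points of conventional CD4 cells, and -0.896 to 1.61 points with 1 mouse left out. The Il13 share ranged over -1.56 to 6.32 points, clone expansion of members over other cells over 5.23 to 7.33 points and overlap with regulatory T cells over 7.99 to 11.6 points (exact p = 0.0625 each). The causes were not tested. The restrictions to 1 TRB chain, to Ccl1 cells and to 2000 UMIs were chosen after seeing the data. Depth limits genes of few UMIs, such as Klf4 and Dusp6.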

Other observations

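Gcg, which encodes proglucagon, was detected in the members. After thinning, a Gcg UMI was found in 4.38% of members, 0.519% of other conventional CD4 cells, 0.12% of regulatory T cells and 0.0218% of cluster 0 CD8 cells. As deposited, 28 members had one. They were 0, 1 and 1 in the anti-ACBP mice and 0, 22 and 4 in the isotype mice. The 22 cells of isotype 2 held 419 UMIs, and 55.7% of those in typed members fell in 1 clone. The gene was chosen after its values were seen.

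Penk, which encodes proenkephalin, was found in 12.6% of thinned members and 14.5% of other conventional CD4 cells. Il5 was found in 11 members, and in isotype 2 a single cell held 84.3% of its UMIs. Il22 was at 81.5 CPM in anti-ACBP 1 and at 0 or 0.874 CPM in the other 5 mice. In Xcl1, a single cell held 43.8 to 88.0% of the UMIs of each mouse.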
